A study of Mus musculus with 36 samples.

Results

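Rab GTPases are small membrane-bound GTPases, and their transcripts were followed here in liver, kidney, skeletal muscle and brain of XO and XX female mice. Every probe of an Illumina mouse array whose current gene symbol is Rab followed by a number and at most 1 letter was taken, which leaves out proteins that bind or regulate Rabs. This rule gave 79 probes for 53 genes, of the 28885 probes in the table of normalised values. The gene table of assembly GRCm38.p6 lists 59 such genes, and Rab26, Rab2b, Rab30, Rab34, Rab40c and Rab44 had no probe. A single probe stood for 33 genes and 2 or 3 probes for the other 20, and probes of a gene were kept apart. Rab33a, Rab39b, Rab9 and Rab9b lie on the X chromosome.

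The mice were 12-week-old females on the random bred MF1 background, in which all X chromosomes descend from a single progenitor X. XO mice have 39 chromosomes and XX mice have 40. XmO mice kept a maternal X and came from crosses of XX females with XPafY* males, whereas XpO mice kept a paternal X and came, like the XX mice, from crosses of In(X)1H/XPaf females with XY males. Each array was hybridised with RNA pooled from 2 or 3 mice of a genotype, and 3 XmO, 3 XpO and 3 XX pools were measured per tissue, from the same mice in the 4 tissues. The XmO and XpO pools together form the XO group, with 6 pools against 3 XX pools, and 5 against 3 in muscle, where the array of XpO pool 3 was not used. A comparison of XmO with XpO pools is also a comparison of crosses. Levels are log2 hybridisation signals after quantile normalisation, and differences between them are log2 values from limma with their standard error (SE) and an adjusted p (Benjamini-Hochberg, over all detected probes of a tissue, threshold 0.05).

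Rab proteins cycle between a GTP-bound form that sits on a membrane and recruits effectors, and a GDP-bound form that is extracted into the cytosol. Exchange factors load GTP, GTPase activating proteins trigger its hydrolysis, and a lipid group added to the carboxyl end anchors the protein. Each Rab marks particular compartments, such as the Golgi, recycling endosomes or secretory vesicles, so the set of Rabs that a cell makes reflects the traffic it carries. Neurons are known for the Rab3 proteins of synaptic vesicles, and polarised epithelia for Rab17 and Rab25.

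The labels and tissues were checked first. Xist, the transcript of the inactive X, lay with ILMN_2475156 between 5.91 and 6.61 (median 6.22) in the 23 XO arrays and between 9.98 and 11.67 (median 10.67) in the 12 XX arrays, without overlap. Its dim probe ILMN_1242589 had 5.43 to 5.84 in XO arrays and 5.70 to 6.92 in XX arrays, which overlapped. The summed linear signal of hepatocyte markers was 207669 to 216980 in liver and at most 1893 elsewhere, and that of kidney tubule markers 98594 to 110664 in kidney and at most 507 elsewhere. Neuron markers summed to 89947 to 114234 in brain and at most 1374 elsewhere. Skeletal muscle fibre markers summed to 161598 to 185442 in muscle and up to 30465 in brain. Markers of brain regions differed widely between brain pools: the cerebellum list summed to 1279 to 40032 in XO pools and 1413 to 31043 in XX pools. The brain array of XmO pool 2 had the lowest mean correlation with the other brain arrays (0.972). The tissues are mixtures of cells, and in them fewer cells of a type and less RNA per cell cannot be told apart.

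The promoters of 4 members with a large tissue difference and a single promoter window are shown, 3 of them highest in brain and Rab17 in the epithelial tissue kidney. Rab15, the member with the second largest tissue difference, had 4 windows and is not shown. RefSeq promoter windows (GRCm38.p6, 250 bases before to 50 after a transcript start) were found for 45 of the 53 genes, 56 windows in all, since 7 genes had more than 1. In the sequences below, written 5′ to 3′ on the gene's strand, capitals mark a match on either strand to the GC box GGGCGG, to CCAAT, to the TATA box TATAAA, to the E-box CACGTG or to the cyclic AMP response element TGACGTCA. None of these motifs lies within another. Rab6b (chr9:103111824-103112123, plus strand), Rab9b (chrX:136868507-136868806, minus strand) and Rab33a (chrX:48519035-48519334, plus strand) had their highest level in brain, and Rab17 (chr1:90967618-90967917, minus strand) in kidney.
Rab6b: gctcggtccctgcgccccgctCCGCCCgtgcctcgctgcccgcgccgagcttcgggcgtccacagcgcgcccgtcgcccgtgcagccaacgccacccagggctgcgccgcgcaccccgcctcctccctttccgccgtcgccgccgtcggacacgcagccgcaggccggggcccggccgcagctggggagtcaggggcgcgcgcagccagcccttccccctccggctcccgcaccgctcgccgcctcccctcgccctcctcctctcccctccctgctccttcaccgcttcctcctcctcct
Rab9b: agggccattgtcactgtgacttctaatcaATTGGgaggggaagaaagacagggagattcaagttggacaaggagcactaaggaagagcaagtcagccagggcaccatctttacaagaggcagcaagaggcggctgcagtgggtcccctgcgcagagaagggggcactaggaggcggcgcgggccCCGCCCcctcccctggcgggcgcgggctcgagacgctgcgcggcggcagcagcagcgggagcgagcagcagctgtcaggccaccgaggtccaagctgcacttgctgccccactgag
Rab33a: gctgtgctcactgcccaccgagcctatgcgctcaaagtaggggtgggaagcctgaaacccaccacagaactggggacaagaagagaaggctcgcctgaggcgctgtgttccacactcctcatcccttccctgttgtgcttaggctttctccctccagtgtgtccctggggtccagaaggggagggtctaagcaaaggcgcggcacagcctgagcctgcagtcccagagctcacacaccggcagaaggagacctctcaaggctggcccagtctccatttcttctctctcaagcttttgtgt
Rab17: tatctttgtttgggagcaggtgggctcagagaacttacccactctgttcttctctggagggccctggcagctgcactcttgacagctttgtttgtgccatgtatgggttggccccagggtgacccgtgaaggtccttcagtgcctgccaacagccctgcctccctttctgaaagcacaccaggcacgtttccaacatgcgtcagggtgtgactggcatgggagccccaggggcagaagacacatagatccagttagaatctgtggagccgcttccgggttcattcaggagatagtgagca
The Rab6b window held 42 CpG dinucleotides and 1 GGGCGG match, and the Rab9b window held 17 CpG with 1 GGGCGG and 1 CCAAT match. The Rab33a and Rab17 windows, with 7 and 5 CpG, matched none of the 5 motifs, which says only that these letters are not in the windows. Both windows lie inside the bounds of their genes, whose upstream ends are at chrX:48513663 (Rab33a) and chr1:90969673 (Rab17). The Rab6b window also lies inside its gene, whose upstream end is at chr9:103111667. The Rab9b window spans its gene's upstream end at chrX:136868556. The sequence at the Rab33a, Rab17 and Rab6b ends was not looked up. Over all Rab windows the median was 19 CpG and 61.0% GC, against 7 CpG and 52.7% GC over the 32851 windows of the table. GGGCGG was found in 67.9% of Rab windows and 35.7% of all windows, and CCAAT in 42.9% of Rab windows and 37.4% of all. TATAAA was found in 7.14% and 13.6%, CACGTG in 10.7% and 7.15%, and TGACGTCA in 3.57% of Rab windows and 1.79% of all windows. The 16 windows of the Rab genes that were at least 2-fold higher in brain held GGGCGG in 62.5% and CCAAT in 50%, with a median of 17.5 CpG. No motif of the 5 was common to all of these windows.

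Most Rab transcripts were found in every tissue. Detection, which means that the authors' table gives the probe values in the tissue, covered 72 probes of 49 genes in brain, 68 of 48 in kidney, 65 of 45 in muscle and 60 of 41 in liver. At gene level 38 genes were detected in 4 tissues, 6 in 3, 4 in 2 and 5 in 1 tissue. A probe was assigned to the tissue whose level exceeded that of each other tissue at an adjusted p under 0.05 in a limma fit to 35 arrays. By this rule 28 Rab probes (35.4%) were highest in brain, against 23.6% of all 28885 probes, and 10 (12.7%) were highest in liver, against 20.6% of all probes. Kidney was highest for 9 Rab probes (11.4%; 12.6% of all), muscle for 15 (19.0%; 17.9% of all), and no single tissue for 17 (21.5%; 25.3% of all). The spread over tissues, as the median range of the 4 tissue means, was 0.91 for Rab probes and 0.84 for all probes.

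**Figure D1:**
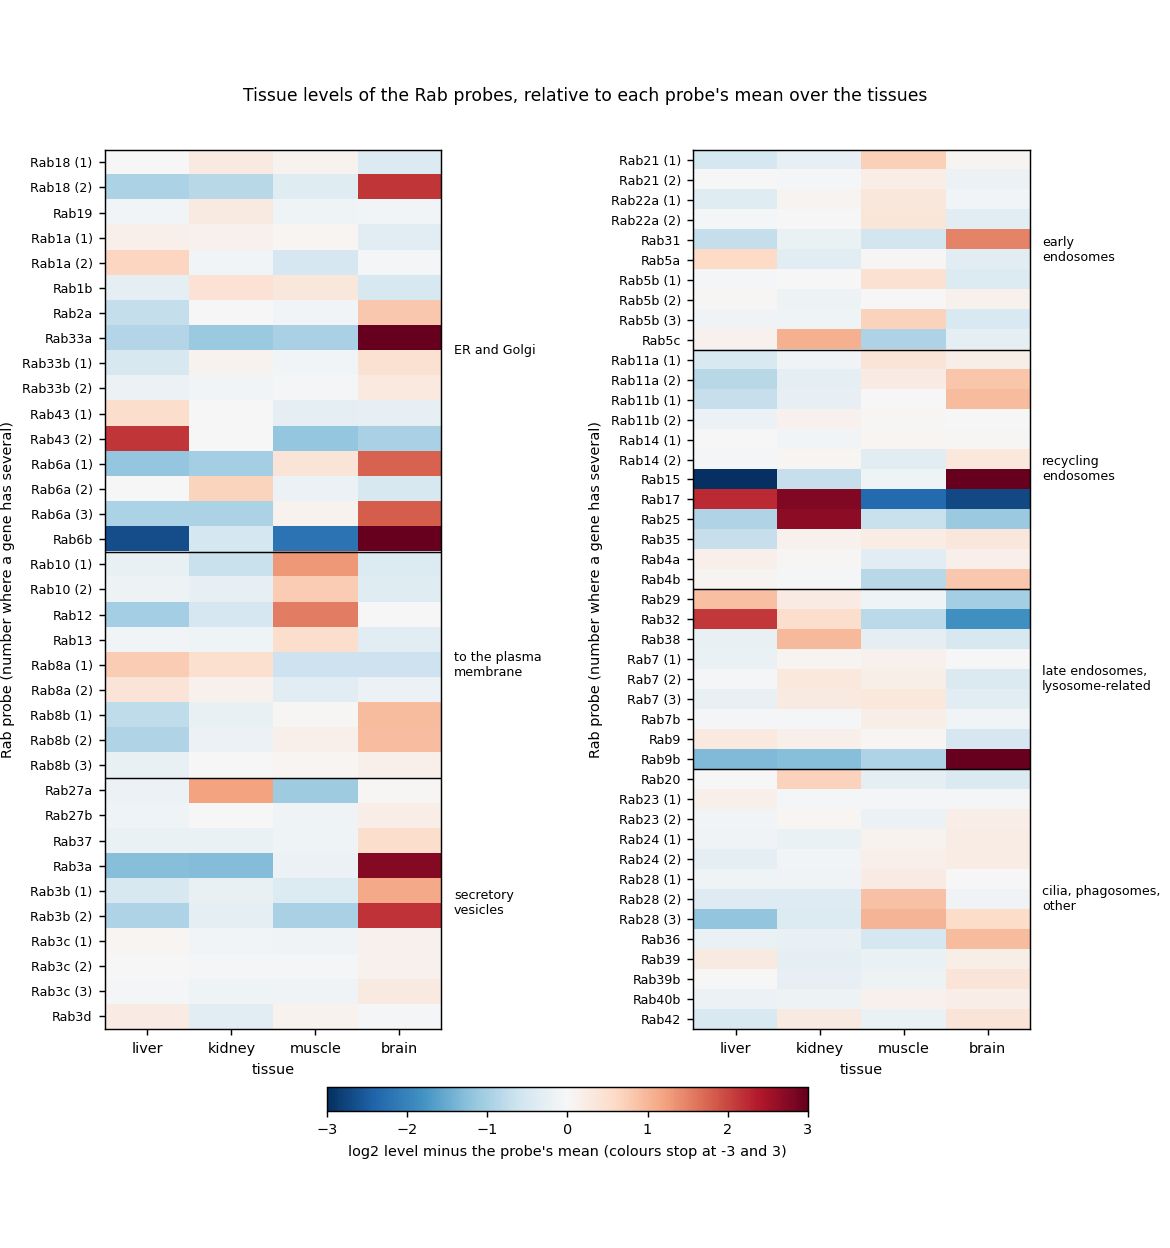
Mean log2 level of each of the 79 Rab probes in liver, kidney, muscle and brain, minus the probe's mean over the 4 tissues (colour, stopped at -3 and 3), in rows grouped by the compartment the Rab acts on; numbers in brackets tell the probes of a gene apart in order of their identifiers. The darkest red cells are Rab33a, Rab6b, Rab15, Rab9b and Rab3a in brain and Rab17 and Rab25 in kidney, whereas most other rows are pale.

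Counted at a difference of at least 2-fold over the mean of the other 3 tissues and an adjusted p under 0.05 (limma), 18 of the 79 Rab probes were higher in brain, where the background was 12.0% of all probes. The counts were 5 in kidney (background 7.42%), 5 in liver (8.38%) and 5 in muscle (8.57%). By compartment, the brain calls were 6 of 16 probes of the endoplasmic reticulum and Golgi, 4 of 12 of recycling endosomes and 3 of 10 of secretory vesicles. They included 2 of 9 probes of traffic to the plasma membrane, 1 of 10 of early endosomes, 1 of 9 of late endosomes and lysosome-related organelles, and 1 of 13 of the remaining group. The median difference of brain from the other tissues was 0.31 for the secretory vesicle probes and -0.58 for the late endosome probes, beside -0.10 over all probes. Median scaling left these medians at 0.35 and -0.23. On the authors' values, which cover 55 Rab probes with values in every tissue, the brain count was 8 (background 9.24%).

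Among the Golgi Rabs, Rab6b (ILMN_1245451, chromosome 9), the relative of Rab6a that is known from neurons, had levels with a lowest, median and highest pool of 13.17, 13.69 and 13.88 in brain. It had 7.65, 7.75 and 7.88 in kidney and 5.81, 5.98 and 6.49 in muscle, and was not detected in liver (5.49, 5.57 and 5.78). Every brain pool lay far above every other pool, and Rab6b was the member with the largest tissue difference (7.22 on the log2 scale, SE 0.07, adjusted p 1.15e-35). The brain signal was 61.4 times that in kidney, 198 times that in muscle and at least 271 times that in liver. Such a bound sets the bright tissue against the higher of the probe's own signal and the lowest signal of any detected probe, array by array.

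The X-linked Golgi member Rab33a (ILMN_3161828), whose product acts in vesicle transport from the Golgi, had a brain range of 10.02 to 10.48 (median 10.28). The ranges were 6.22 to 6.54 in liver, 6.12 to 6.24 in kidney and 6.20 to 6.39 in muscle. Brain stood apart by 3.98 (SE 0.04, adjusted p 4.30e-34), that is 14.6-fold over liver, 17.2-fold over kidney and 15.6-fold over muscle, whereas liver and muscle did not differ beyond their spread (adjusted p 0.128). Rab33b, its autosomal relative that recruits an autophagy complex, was also highest in brain with both of its probes, but by less: with ILMN_1217599 the means were 10.05 in brain, 9.71 in kidney, 9.51 in muscle and, as the lowest, 9.11 in liver.

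The third Golgi gene, Rab6a, which directs transport from endosomes to the Golgi and within it, gave opposite patterns with different probes. Its probe ILMN_2699635 had 9.52 to 10.31 in brain, 8.20 to 8.43 in muscle, 7.13 to 7.53 in kidney and 6.83 to 7.64 in liver, and ILMN_1242802 gave the same highest tissue. The remaining probe, ILMN_1250440, was highest in kidney (8.22 to 8.53) and lowest in brain (7.001 to 7.75). Rab18, known from lipid droplets and the endoplasmic reticulum, likewise had 1 probe highest in brain (ILMN_1230241, 8.14 to 9.43, not detected in liver or kidney) and 1 highest in kidney (ILMN_1217153, 11.41 to 11.60). Rab6a and Rab18 were chosen here after their values were seen. Of the 20 genes with several probes, 8 had all probes highest in the same tissue, 4 had probes highest in different tissues, and 8 had at least 1 probe with no single highest tissue. Where the probes lie in the transcripts was not looked up.

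Secretory vesicle Rabs followed. Rab3a (ILMN_2673188, chromosome 8), the synaptic vesicle Rab, had 9.90, 10.23 and 10.77 as its lowest, median and highest brain pool. Its muscle pools lay at 7.07 to 7.48, its kidney pools at 6.08 to 6.30 and its liver pools at 6.01 to 6.57. The brain pools did not overlap the others (3.67, SE 0.06, adjusted p 1.37e-30), the brain signal was 7.63 times that in muscle, and liver and kidney did not differ beyond their spread (adjusted p 0.722). Rab3b, a relative in neuroendocrine cells, was highest in brain with both probes, and with ILMN_2625592 (8.08 to 9.25 in brain) it was at least 8.48-fold over liver and 5.45-fold over kidney.

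Rab27a (ILMN_2614966), which tethers secretory granules and melanosomes, was the secretory member with its highest level in kidney. Its pools ranged from 9.09 to 9.36 there, from 7.49 to 8.75 in brain, from 7.71 to 7.98 in liver and from 6.82 to 7.15 in muscle. The kidney difference was 1.60 (SE 0.08, adjusted p 2.19e-17), or 2.22-fold over brain.

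Recycling endosome Rabs were split between brain and the epithelial tissues. Rab15 (ILMN_1217009, chromosome 12), which slows transferrin receptor recycling and is known from neural tissue, had 12.88, 13.30 and 13.67 in brain. It had 8.45, 9.03 and 9.21 in muscle and 8.10, 8.45 and 8.77 in kidney, and was not detected in liver (5.54 to 5.87). The brain difference was 5.63 (SE 0.08, adjusted p 1.31e-31), which is 20.8-fold over muscle, 29.9-fold over kidney and at least 197-fold over liver.

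Rab17 and Rab25, both known for traffic in polarised epithelia, had the opposite distribution. Rab17 (ILMN_2657019, chromosome 1) had 11.10, 11.21 and 11.40 in kidney and 10.42, 10.68 and 10.80 in liver. It had 5.68, 6.10 and 6.80 in muscle and was not detected in brain (5.67 to 5.85). Kidney lay above liver without overlap (1.47-fold), above muscle by 34.5-fold and above brain by at least 44.7-fold, and the difference from the mean of the other tissues was 3.71 for kidney (SE 0.07, adjusted p 2.15e-27) and 2.97 for liver (SE 0.07, adjusted p 4.11e-25).

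Rab25 (ILMN_2776087, chromosome 3), a relative of Rab11, was high in kidney alone, with 9.47, 9.70 and 9.81. Its pools had 5.85 to 7.30 in muscle and 5.72 to 6.12 in brain, and the gene was not detected in liver (5.76 to 6.33). The kidney difference was 3.57 (SE 0.07, adjusted p 2.40e-27), which is 10.2-fold over muscle, 13.8-fold over brain and at least 12.0-fold over liver.

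**Figure D2:**
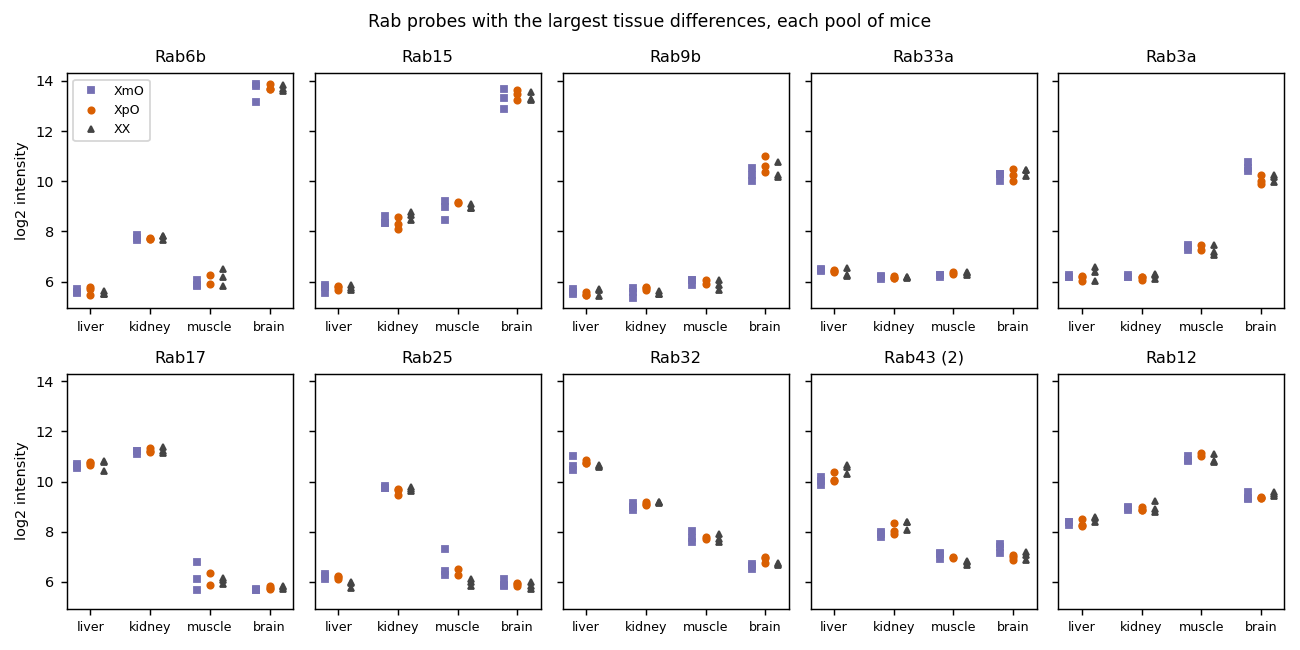
Log2 level of 10 Rab probes in every pool of mice (vertical axis) by tissue (horizontal axis), with XmO pools as squares, XpO pools as circles and XX pools as triangles. The tissue with the highest level stands apart from the other tissues, which in part overlap one another, as muscle and brain do for Rab17; the brain pools of Rab6b sit between 13.17 and 13.88 and the kidney pools of Rab17 between 11.10 and 11.40.

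Late endosome and lysosome-related Rabs were split between tissues. Rab9b (ILMN_2605249, X chromosome), the relative of the late endosome protein Rab9, was detected in brain alone, with 10.01, 10.35 and 10.99. The other tissues had 5.44 to 5.71 in liver, 5.36 to 5.79 in kidney and 5.67 to 6.08 in muscle. Brain was at least 29.0-fold over liver, 28.3-fold over kidney and 22.4-fold over muscle (4.72, SE 0.07, adjusted p 5.46e-31). Rab32 (ILMN_1221274, chromosome 10), which acts on mitochondria and lysosome-related organelles, was a liver member, with 10.47, 10.66 and 11.02 in liver. It had 8.88 to 9.20 in kidney, 7.59 to 8.02 in muscle and 6.53 to 6.98 in brain. No tissues overlapped, and liver was 3.04-fold over kidney and 15.5-fold over brain (2.84, SE 0.05, adjusted p 1.14e-28).

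Of its relatives, Rab29 was also highest in liver and Rab38 in kidney. Rab29 (ILMN_2681186), which works with the kinase LRRK2, had 9.11 to 9.42 in liver, 8.58 to 8.72 in kidney, 8.09 to 8.44 in muscle and 7.17 to 7.45 in brain (1.21 for liver, SE 0.03, adjusted p 7.75e-24). Rab38 (ILMN_2652721), a melanosome Rab, had 7.30 to 7.61 in kidney, 6.04 to 6.32 in liver, 6.01 to 6.39 in muscle and 5.84 to 6.15 in brain (1.28 for kidney, SE 0.04, adjusted p 8.61e-23). With the authors' values the differences were 0.35 for Rab29, 0.90 for Rab38 and 1.85 for Rab32, and with median scaling that of Rab29 was 0.70, so the 2-fold calls of Rab29 and Rab38 were lost there. Liver and muscle did not differ beyond their spread for Rab38 (adjusted p 0.408).

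Liver, kidney and muscle each had further members above the other tissues. In liver, Rab43 (ILMN_1250910, chromosome 6), which works between endoplasmic reticulum and Golgi, had 9.86, 10.20 and 10.68, against 7.80 to 8.40 in kidney, 6.70 to 7.17 in muscle and 6.86 to 7.52 in brain. Liver was 4.44-fold over kidney, 9.94-fold over muscle and 8.66-fold over brain (2.86, SE 0.06, adjusted p 8.11e-27), and the weaker probe ILMN_1229477 was detected in liver alone. Rab8a (ILMN_1243981), which acts in transport to the plasma membrane and to cilia, was 1.02 above the other tissues in liver (SE 0.03, adjusted p 1.06e-22). Its difference was under 2-fold with the authors' values (0.14), with median scaling (0.49) and with normexp background correction (0.97), and on the authors' values that of Rab43 was 1.76. In kidney, the early endosome member Rab5c (ILMN_1225414) had 11.69 to 12.12, against 10.82 to 11.19 in liver, 10.45 to 10.80 in brain and 9.75 to 10.08 in muscle (1.42, SE 0.04, adjusted p 1.87e-24).

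Muscle members came from traffic to the plasma membrane and, with Rab28, from the remaining group. Rab12 (ILMN_1232851, chromosome 17), which acts on recycling endosomes, had 10.77, 10.94 and 11.15 in muscle, against 9.31 to 9.59 in brain, 8.77 to 9.22 in kidney and 8.25 to 8.59 in liver. Muscle was 2.88-fold over brain, 4.04-fold over kidney and 5.84-fold over liver (2.05, SE 0.05, adjusted p 4.11e-25). Rab10, which moves glucose transporter vesicles to the cell surface, was higher in muscle with both probes, by 1.73 (ILMN_2654296, SE 0.06, adjusted p 1.09e-20) and 1.01 (ILMN_2668608, SE 0.06, adjusted p 4.90e-16). Rab28, known from cilia and photoreceptors, was higher with ILMN_2739698 (12.97 to 13.41 in muscle; 1.35, SE 0.05, adjusted p 1.13e-21) and with ILMN_1238517 (8.38 to 8.76; 1.17, SE 0.04, adjusted p 2.65e-21). Of these, the weaker Rab10 probe (ILMN_2668608) lay under 2-fold in 8 of 14 alternatives, with 0.43 on the authors' values and 0.97 without XpO pool 1, and also without XX pool 2, XmO pool 1 or XmO pool 2. The weaker Rab28 probe (ILMN_1238517) had 0.71 on the authors' values and 0.97 with median scaling.

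XO pools were then compared with XX pools in each tissue, which asks whether Rab transcripts differed between XO and XX mice. The XmO pools also came from other crosses than the XX pools, so for them X number and cross cannot be told apart. In liver, 3 of the 60 detected Rab probes passed the threshold, 2 higher and 1 lower in XO pools, beside a background of 5.70% of all detected probes, of which 2.94% were higher and 2.76% lower. At an unadjusted p under 0.05 there were 16 Rab probes, beside 26.3% of all probes. Differences ranged from -0.43 to 0.45 with a median of -0.02, and 50 of the 60 lay within 0.25 of 0. XO and XX pools did not overlap, in either direction, for 10 of the 60 (16.7%), beside 15.2% of all probes. The Rab share was thus near the background in liver, and the called members are given one by one.

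Rab6a (ILMN_2699635) had 7.39, 7.53 and 7.25 in XmO livers and 7.42, 7.37 and 7.64 in XpO livers, against 6.90, 7.21 and 6.83 in XX livers. All 6 XO pools lay above all 3 XX pools. The means were 7.43 ± 0.14 in XO livers and 6.98 ± 0.20 in XX livers (SD, n = 6 and 3), a difference of 0.45 (SE 0.10, adjusted p 0.0326). The other Rab6a probes gave 0.15 (ILMN_1242802, adjusted p 0.272) and 0.10 (ILMN_1250440, adjusted p 0.580).

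Rab21 (ILMN_1254137, chromosome 10), an early endosome Rab that carries integrins, had 8.11, 7.96 and 7.97 in XmO livers and 7.91, 7.95 and 7.93 in XpO livers, against 7.71, 7.76 and 7.61 in XX livers. The groups did not overlap, and the means were 7.97 ± 0.07 in XO livers and 7.69 ± 0.07 in XX livers (SD, n = 6 and 3; 0.28, SE 0.07, adjusted p 0.0390). Its second probe, ILMN_2763867, gave a similar difference just outside the threshold (0.29, adjusted p 0.0510). Rab43 (ILMN_1250910), the liver-high Golgi member, was the 1 called lower: 10.04, 10.20 and 9.86 in XmO livers and 10.03, 10.39 and 10.06 in XpO livers, against 10.68, 10.29 and 10.60 in XX livers. Here XpO pool 2 lay above XX pool 2, so the groups overlapped (10.10 ± 0.18 in XO livers and 10.52 ± 0.20 in XX livers, -0.43, SE 0.11, adjusted p 0.0494), and its other probe had the opposite sign (0.26, adjusted p 0.241).

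**Figure D3:**
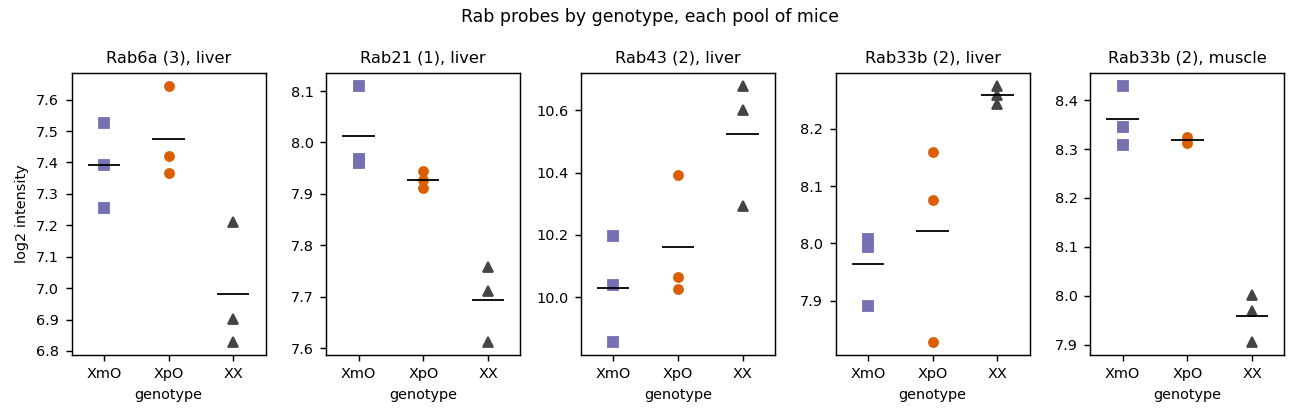
Log2 level in each pool (points, with the group mean as a bar) for XmO, XpO and XX mice, for the 3 Rab probes called in liver and for Rab33b (ILMN_2744560) in liver and muscle. The XO pools of Rab6a and Rab21 lie above the XX pools, those of Rab43 overlap them at 10.39 and 10.29, and Rab33b lies below the XX pools in liver and above them in muscle.

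These liver calls were close to the threshold, and none of the 3 held in every fit. The call was lost in 7 of 17 alternatives for Rab6a, 11 of 18 for Rab21 and 13 of 18 for Rab43. With median scaling in place of quantiles, which moves the median difference of all probes in liver to 0.05, 6 Rab probes were called (background 7.18%), 6 higher (background 6.48%) and 0 lower (background 0.699%), so that calls over all probes were mostly higher too. Without XX pool 1 the adjusted p was 0.0860 for Rab6a and without XX pool 3 it was 0.133, and neither the XpO pools alone nor the XmO pools alone against XX gave a called Rab probe in liver. When the 3 genotypes were fitted as separate groups, XmO against XX pools called 5 Rab probes in liver (background 7.80%), of Rab28, Rab21, Rab8a, Rab43 and Rab8b, and XpO against XX pools called 0 (background 0.146%). The leukocyte marker list, all 9 probes of 6 genes detected, summed to 4660 to 5080 in XO livers and 5301 to 6013 in XX livers without overlap, and its part in these results was not tested.

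By compartment, the 8 detected probes of traffic to the plasma membrane (Rab8a, Rab8b, Rab10, Rab12 and Rab13) all had a negative XO minus XX difference in liver, between -0.34 and -0.13 with a median of -0.21, and 0 of the 8 passed the threshold. The sign was negative for every detected probe of the group in liver under each of 19 alternative settings, and the liver median of all probes was 0.01. These settings refit the same liver pools, and the 8 probes stand for 5 genes, so the repeats of the sign are not independent. In kidney the median of this group was -0.06, in muscle 0.09 and in brain 0.05, the last of which turned to -0.02 under median scaling. The medians of the other 6 groups in liver lay between -0.08 and 0.05.

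**Figure D4:**
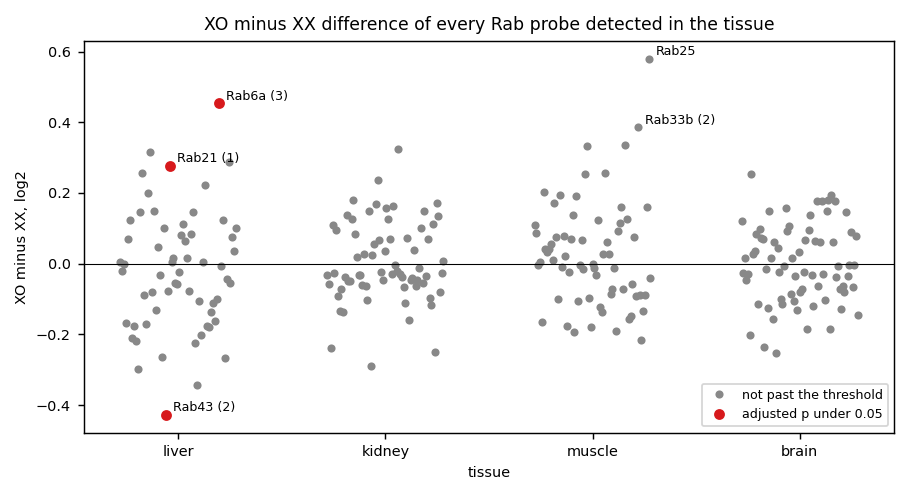
XO minus XX difference (log2, vertical axis) of every detected Rab probe in liver (60), kidney (68), muscle (65) and brain (72), with red points past an adjusted p of 0.05. Red points occur in liver alone (Rab6a, Rab21 and Rab43), and the highest grey point is Rab25 in muscle at 0.58.

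In kidney, 0 of 68 Rab probes were called in limma (background 0.0470%), and 12 had an unadjusted p under 0.05, beside 12.8% of all probes. The smallest p belonged to Rab7, the late endosome Rab, with 8.67, 8.77 and 8.95 as the lowest, median and highest XO pool, against 8.59, 8.53 and 8.52 in XX pools (ILMN_1254837; 0.24, SE 0.06, adjusted p 0.205). A second Rab7 probe gave 0.33 (ILMN_2618549, adjusted p 0.245). XO and XX kidneys overlapped for this probe and for the remaining and brightest Rab7 probe, ILMN_1248907. The groups did not overlap for the first probe, nor for Rab28 (ILMN_1238517), which had 7.28 to 7.43 in XO kidneys, against 7.18, 7.17 and 7.20 in XX kidneys (0.18, adjusted p 0.212). They overlapped for the brighter Rab28 probe, ILMN_2739698. Separate groups were seen for 2 of 68 Rab probes (2.94%) and 5.58% of all probes in kidney.

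In muscle, 0 of 65 Rab probes were called in limma (background 0.00917%), with 14 at an unadjusted p under 0.05, beside 15.5% of all probes. Rab33b (ILMN_2744560) came nearest, with 8.43, 8.31 and 8.35 in XmO muscles and 8.31 and 8.32 in XpO muscles, against 7.97, 7.91 and 8.002 in XX muscles. The groups did not overlap (8.34 ± 0.05 in XO muscles, n = 5, and 7.96 ± 0.05 in XX muscles, n = 3; 0.39, SE 0.06, adjusted p 0.0824). Rab10 (ILMN_2668608) had 7.32 to 7.57 in XO muscles, against 7.03, 7.26 and 7.07 in XX muscles (0.34, adjusted p 0.144), and Rab8b (ILMN_1250954), a relative of Rab8a, differed by 0.33 (adjusted p 0.185). That Rab8b probe was dim, with a muscle mean of 6.15. The brighter probes of these genes overlapped between XO and XX muscles (ILMN_2654296 of Rab10, ILMN_1223029 and ILMN_1249479 of Rab8b). Separate groups were found for 13 of 65 Rab probes (20%) and 10.8% of all probes in muscle. The muscle fibre list summed to 179386 to 185442 in XO muscles and 161598 to 175641 in XX muscles without overlap, and its part in these values was not tested.

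Rab25 had the largest difference of any Rab probe in muscle and was picked out after its values were seen (0.58, SE 0.20, adjusted p 0.223). It had 6.26 to 7.30 in XO muscles, against 5.999, 6.10 and 5.85 in XX muscles, with XmO pool 3 at 7.30 and the remaining XO pools at 6.53 or below. The same pool had the highest muscle level of the other epithelial member, Rab17 (6.80).

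In brain, 0 of 72 Rab probes were called in limma (background 0.00402%), and 0 had an unadjusted p under 0.05, beside 2.68% of all probes. The smallest p values were those of Rab6a (ILMN_1242802, -0.25, adjusted p 1.00), Rab5b (-0.12) and Rab28 (-0.16). Groups were separate for 1 of 72 Rab probes (1.39%) and 1.61% of all probes. Brain differences lay between -0.25 and 0.25, and the median SE was 0.11, compared with 0.07 in kidney and 0.08 in liver and in muscle.

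The 4 X-linked members are present in 1 copy in XO mice. Rab33a had 10.02, 10.27 and 10.48 as the lowest, median and highest XO brain pool, against 10.44, 10.22 and 10.45 in XX brains (-0.15, adjusted p 1.00). Rab9b had 10.01, 10.44 and 10.99 in XO brains, against 10.26, 10.76 and 10.16 in XX brains (0.06, SE 0.21). The groups overlapped for both. Rab39b, which is known for its role at synapses, gave -0.08 in liver and 0.08 in kidney, and -0.02 in muscle and 0.06 in brain. Rab9, which returns mannose 6-phosphate receptors to the Golgi, gave 0.02 in liver and 0.07 in kidney, and -0.01 in muscle and 0.03 in brain. Rab33a itself, near the detection limit outside brain, differed by 0.10 in liver, 0.01 in kidney and -0.04 in muscle. No X-linked Rab passed the threshold in any tissue in limma, whether adjusted over all probes or over X-linked probes alone.

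The autosomal gene Rab33b (chromosome 3) was followed in every tissue. In liver, ILMN_2744560 had 7.89, 7.99 and 8.01 in XmO pools and 8.16, 8.08 and 7.83 in XpO pools, against 8.26, 8.24 and 8.27 in XX pools. All XO livers lay below all XX livers, although the difference of -0.27 (SE 0.08, adjusted p 0.0609) stayed outside the threshold, and in muscle the same probe lay above. The second probe, ILMN_1217599, gave -0.17 in liver (adjusted p 0.210) and -0.16 in muscle (adjusted p 0.394), so the probes shared a sign in liver and not in muscle. In kidney the probes gave -0.10 and -0.03, and in brain 0.15 (ILMN_2744560) and -0.20 (ILMN_1217599).

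XmO and XpO pools, which differ in the parent that gave the X and in the cross, were compared next. No Rab probe was called in limma in any tissue, where the background was 0.0503% in liver and 0.0897% in kidney, and 0.0138% in muscle and 0.0161% in brain. At an unadjusted p under 0.05 there were 3 Rab probes in liver (background 9.70%), 8 in kidney (11.2%), 4 in muscle (9.13%) and 9 in brain (11.2%). The smallest p in brain was that of Rab33b (ILMN_2744560), with 8.89, 8.76 and 8.85 in XmO brains, against 8.17, 8.36 and 8.57 in XpO brains (0.47, SE 0.10, adjusted p 0.211). In liver it was Rab36, of which little is known, with 5.72, 5.81 and 5.82 in XmO pools, against 6.63, 5.88 and 6.33 in XpO pools (-0.50, SE 0.15, adjusted p 0.369). The early endosome gene Rab22a (ILMN_2768841) had the smallest p in kidney, with 7.78, 7.78 and 7.81 in XmO pools against 7.68, 7.54 and 7.33 in XpO pools (0.27, adjusted p 0.276). It also had the smallest p in muscle, with the opposite sign: 7.72, 7.92 and 7.67 in XmO pools against 8.01 and 8.13 in XpO pools (-0.30, adjusted p 0.460). In these 4 cases the pools did not overlap, which was also true of 17.2% (liver), 17.9% (kidney), 27.6% (muscle) and 18.0% (brain) of all probes.

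Whether the XO minus XX difference itself changed between tissues was tested as an interaction in the fit to all 35 arrays, for 6 pairs of tissues. Between liver and muscle, 9 of 56 Rab probes differed, beside a background of 13.4% of all probes detected in both, 3 with a higher (background 7.40%) and 6 with a lower difference in liver (background 5.97%). Rab21 differed with both probes, by 0.52 (ILMN_2763867, SE 0.10, adjusted p 0.00171) and 0.44 (ILMN_1254137, adjusted p 0.0101). Rab28 (ILMN_1238517) differed by 0.49 (adjusted p 0.00292). The brighter Rab28 probe, ILMN_2739698, was not called and overlapped between XO and XX pools in both tissues. Rab33b (ILMN_2744560) differed by -0.65 (SE 0.15, adjusted p 0.00545) and Rab43 (ILMN_1250910) by -0.67 (adjusted p 0.00704), both with lower XO than XX levels in liver and higher XO than XX levels in muscle. The other Rab33b probe, ILMN_1217599, was not called (-0.17 in liver and -0.16 in muscle). Rab5c, Rab10, Rab39 and Rab8a made up the remaining 4. Of Rab10, ILMN_2668608 was called and ILMN_2654296 was not. Without XpO pool 2 the count was 5 (background 8.51%). Under median scaling it was also 5 (background 6.20%), with 1 higher (background 3.09%) and 4 lower (background 3.10%).

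Between liver and brain, 6 of 56 Rab probes differed (background 7.14%), 2 higher (background 4.05%) and 4 lower (background 3.09%) in liver: Rab28 by 0.47 (adjusted p 0.00765), Rab6a (ILMN_2699635) by 0.58 (adjusted p 0.0217), Rab8b (ILMN_1249479) by -0.42 (adjusted p 0.0272), and Rab39, Rab43 and Rab5c by -0.37, -0.53 and -0.32. This count was 0 without XX pool 3 (background 0.712%) and 0 in a fit of the 2 tissues alone (background 1.39%). It was 2 without XpO pool 2 (background 3.83%), 3 without XX pool 1 (background 5.67%) and 3 without XmO pool 3 (background 6.42%). Under median scaling, which shifts the median of all probes in this interaction to 0.11, 11 Rab probes were called (background 12.0%), 11 higher (background 11.3%) and 0 lower (background 0.663%), and Rab8b, Rab39 and Rab43 kept their negative sign without passing. The interactions of liver with kidney (background 0.471%), kidney with muscle (1.54%), kidney with brain (0.00962%) and muscle with brain (0.0352%) called 0 Rab probes in limma. At an unadjusted p under 0.05 they had 2 Rab probes (background 13.7%), 15 (15.4%), 8 (8.64%) and 8 (7.43%) in the same order.

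**Figure D5:**
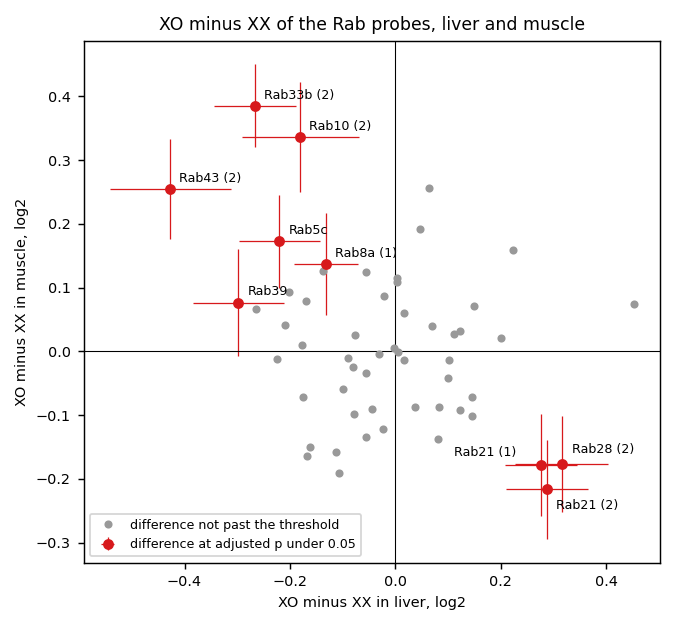
XO minus XX difference in liver (horizontal axis, log2) against that in muscle (vertical axis, log2) for the 56 Rab probes detected in both; red points with bars (1 SE) passed the interaction test. Rab33b, Rab43, Rab10, Rab5c, Rab39 and Rab8a lie at the upper left, and Rab21 and Rab28 at the lower right.

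Proteins that act on Rabs were read from 4 lists. In liver 4 of 113 probes were called, 1 higher and 3 lower in XO pools (background 5.70%), and 0 of 135 in kidney, 0 of 126 in muscle and 0 of 144 in brain were called in limma. Among the effectors (36 probes, 28 of 44 genes; 2 lower, median -0.02), Gcc2, a Golgi tether bound by Rab6 and Rab9, fell by 0.56 with 1 probe (ILMN_1237855, SE 0.09, adjusted p 0.0190) and gave 0.00 with the other. Sytl4, an X-linked effector of Rab27a and Rab3 on secretory granules, gave -0.48 (SE 0.10, adjusted p 0.0270). Among the exchange factors (31 probes, 24 of 34 genes; 1 lower, median 0.03), Rgp1, part of the exchange factor of Rab6, differed by -0.32 (ILMN_2447658, SE 0.08, adjusted p 0.0482) and by -0.07 with its second probe. Of the lipid attachment list (8 probes), Rabif, a chaperone of Rabs that include Rab10, was higher by 0.32 with 1 probe (ILMN_2672997, SE 0.07, adjusted p 0.0301) and gave -0.01 with the other. The GTPase activating proteins (38 probes, 26 of 37 genes) had 0 calls in limma, 12 probes at an unadjusted p under 0.05 (background 26.3%) and a median of 0.00. As with Rab6a and Rab43, the called probe of Gcc2, Rgp1 and Rabif was not matched by the gene's other probe.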

How the data were processed

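RNA of 36 pools of mice was hybridised to Illumina mouse arrays, 9 per tissue. The authors summarised bead intensities with BeadStudio, and this table was deposited without normalisation, on a linear intensity scale with decimal commas (median per array 55.6 to 70.4). A second deposited table gives, for 28885 probes, values on a log scale that the authors quantile normalised across all arrays using lumi, and that rose by 0.956 to 1.04 per unit of log2 intensity over bright probes, as log2 values do; a blank there was read as not detected. The array annotation gave 1 gene symbol for 21014 probes, several for 6 and none for 7865, and gene identifiers were matched to the gene table of GRCm38.p6 for current symbols and chromosomes.

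With a floor of 1, intensities were log2 transformed and quantile normalised together for 35 arrays, without background correction. The intensity column of the muscle array of XpO pool 3 held whole numbers of 10 to 108 with a rank correlation of -0.0374 with the authors' values of that array, against 0.99994 or more elsewhere, and was left out except from fits to the authors' values. Identifiers with differing lines (11) were averaged. Signals near background compress differences, so those of dim probes understate a change.

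Comparisons were fitted with limma 3.58.1 in R 4.3.3 (two-sided moderated test, Benjamini-Hochberg, threshold 0.05): XO against XX pools by tissue, XmO against XpO pools by tissue in a fit of 3 genotypes, and tissues or interactions in a fit of 12 groups over all arrays used. The tissue contrasts were fitted to all 28885 probes without a filter. Replicates are pools of mice, and their number limits the precision. Named probes were those past the threshold and the 3 with the smallest p for XO minus XX in a tissue, Rab33b and the X-linked members, the 5 with the largest positive difference per tissue, the smallest p for XmO minus XpO, up to 5 calls per interaction and up to 3 per list of regulators. The members, their compartments and the lists were chosen with earlier results of these data known. On simulated data with 200 changed probes, a log2 change of 0.5 was recovered for 83.0% of probes (liver and muscle), 96.5% (kidney) and 44.0% (brain), and a change of 0.25 for 0%. The simulation drew independent noise and changed fewer probes than the 1133 called in liver. Its recovery is therefore not that of the liver data, where Rab21 was called at 0.28.

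Alternatives were the authors' values, median scaling, quantiles within a tissue, normexp background correction (offset 50), no filter, the brighter detected probes, XpO or XmO pools alone, a replicate block, adjustment over X-linked probes alone, the 2 tissues of an interaction alone, and leaving out each pool. Tables and figures were made with Python 3.11.15, pandas 2.3.3 and matplotlib 3.10.9. Promoter windows are from RefSeq (GRCm38.p6); protein sequences and probe positions were not used here.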

Additional observations from a re-analysis of the deposited data

Results flagged for a closer look

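A single pool stood far from the rest of its group in 2 of 32 groups of XO pools examined, where chance alone gives about 1 in 20. In kidney, Rab9 had 7.43 in XpO pool 3, with the next XO pool at 7.59. In liver, Rab21 (ILMN_1254137) had 8.11 in XmO pool 1, with the next XO pool at 7.97. The Rab21 call was lost without any 1 of 8 of the 9 pools, that pool among them.

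The XO minus XX difference itself differed between tissues for 15 combinations of a Rab probe and a pair of tissues, by the interaction test in limma. In liver less muscle these were Rab21 (0.52 with ILMN_2763867, adjusted p 0.00171, and 0.44 with ILMN_1254137, adjusted p 0.0101), Rab28 (0.49, adjusted p 0.00292), Rab33b (-0.65, adjusted p 0.00545), Rab43 (-0.67, adjusted p 0.00704), Rab5c (-0.39, adjusted p 0.00916), Rab10 (-0.51, adjusted p 0.0177), Rab39 (-0.38, adjusted p 0.0224) and Rab8a (-0.27, adjusted p 0.0326). In liver less brain they were Rab28 (0.47, adjusted p 0.00765), Rab6a (0.58, adjusted p 0.0217), Rab8b (-0.42, adjusted p 0.0272), Rab39 (-0.37, adjusted p 0.0346), Rab43 (-0.53, adjusted p 0.0363) and Rab5c (-0.32, adjusted p 0.0406). The Rab28, Rab43, Rab5c and Rab39 probes lay in both sets, which share the liver pools. Rab21 alone was called with more than a single probe, and the Rab28 calls were those of ILMN_1238517. Mice of the same pool gave RNA to every tissue.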

How the results depend on the processing

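Changing the processing moved counts near the threshold more than the large tissue differences, and the causes were not tested. The calls of all probes moved too. Median scaling took them from 5.70% to 7.18% for XO minus XX in liver. For liver less muscle it took them from 13.4% to 6.20%, and for liver less brain from 7.14% to 12.0%. Counts printed here without such a share are not results about the Rab members. For XO minus XX in liver the 3 called Rab probes became 5 with the authors' values, 6 with quantiles within the tissue, 6 with median scaling, 6 among the brighter probes, 0 with XpO pools alone, 0 with XmO pools alone, 0 with the replicate block and 0 when adjusted over X-linked probes alone, where 3 Rab probes could count. Leaving out 1 pool gave 0 to 4, with 0 without XX pool 1, XX pool 3, XmO pool 1 or XmO pool 2. XO minus XX in muscle had 1 call with the authors' values (Rab33b), which also include the muscle array of XpO pool 3, and 4 with median scaling, and XmO minus XpO in liver had 1 with median scaling. Counts of probes at least 2-fold higher in a tissue were 2 (authors' values) and 3 (median scaling) in liver, 9 in kidney (median scaling), 3 and 3 in muscle and 8 in brain (authors' values); the median of all probes was -0.19 in liver with median scaling (-0.05 as reported), and with the authors' values, which cover probes detected in every tissue, it was -0.31 in liver, 0.16 in kidney and 0.12 in brain (-0.07 in kidney and -0.10 in brain as reported). Interaction counts were 5 for liver less muscle with median scaling and 5 to 8 without a pool; 0 for liver less brain in the 2 tissues alone, 11 with median scaling and 0 to 6 without a pool; and for kidney less muscle 1 in the 2 tissues alone, 5 with median scaling, 3 with the authors' values and 0 to 1 without a pool. Muscle less brain had 1 with median scaling. For regulators and effectors in liver the counts were 2 over X-linked probes alone, 8 with the authors' values, 7 with median scaling, 2 with XmO pools alone, 0 with XpO pools alone and 0 to 5 without a pool; in muscle 3 with median scaling, and in kidney 0 to 1 without a pool. The alternatives for regulators, the leave-outs and scalings of interactions and the detected-probe filter of tissue contrasts were chosen after seeing the data.

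Differences that changed sign were all small and uncalled. With XmO pools alone, liver gave 0.013 for Rab39b and -0.0016 for Rab9, muscle 0.059 for Rab9 and brain -0.13 for Rab9b. With XpO pools alone, kidney gave 0.044 for Rab33b (ILMN_1217599), muscle 0.023 for Rab33a and 0.071 for Rab39b, and brain -0.089 for Rab33b (ILMN_2744560), -0.039 for Rab39b and -0.030 for Rab9. Median scaling gave -0.0028 for Rab33a in kidney, 0.097 for Rab9 in muscle and -0.054 for Rab9b in brain, and the authors' values 0.010 for Rab9 in muscle. Without 1 pool the ranges were -0.021 to 0.091 for Rab9 in liver, -0.073 to 0.020 for Rab33b (ILMN_1217599) and -0.0068 to 0.018 for Rab33a in kidney, -0.054 to 0.011 for Rab39b and -0.071 to 0.037 for Rab9 in muscle, and -0.036 to 0.084 for Rab9 and -0.053 to 0.25 for Rab9b in brain.

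Among the single-probe results, 525 kept direction and side of the threshold without a pool, 46 lost the call, 1 gained one and 14 changed sign. Under the other settings these numbers were 410, 36, 6 and 14. The replicate number did not pair the pools of a tissue (correlation of deviations of same-numbered pools -0.58 to 0.37, 4 of 34 over 0.1), and the replicate block left the count of each other XO minus XX comparison of Rab probes at 0. Arrays of the same pool in 2 tissues did share deviations (median correlation 0.12, 32 of 51 over 0.1). Of other pools of the genotype in 2 tissues, 1 of 102 pairs lay over 0.1. The fit of 12 groups as reported took all arrays as independent. For interactions the block of shared mice gave 9 calls in liver less muscle and 6 in liver less brain. No filter for the tissue contrasts is the fit as reported. Small differences of dim probes such as Rab36 or Rab39b are limited by their signal, near that of probes not detected (median 5.79 to 5.84).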
